A study of Homo sapiens with 6 samples.

Results

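The expression of 9 surface antigen genes of small-cell lung cancer (SCLC) was examined in H146 cells after KIFC1 knockdown: *NCAM1*, *CADM1*, *CD276*, *SEZ6*, *SSTR2*, *EPCAM*, *L1CAM*, *CD47* and *B4GALNT1*. They were chosen by name, as genes whose products serve as markers or therapy targets in SCLC, and all 9 were found among the 28395 genes of the count table. H146 is an established SCLC cell line, spelled NCI-H146 in the sample characteristics and NIH-H146 in the sample titles. RNA was sequenced on day 2 after transfection, with 3 libraries from wild-type cells given a negative control siRNA and 3 libraries from cells given an siRNA against *KIFC1*, the mitotic kinesin that clusters extra centrosomes (siKIFC1 libraries, named KD_2 by the submitters). The labels call the libraries of each group biological replicates, in 1 cell line, without saying which of the study's siRNAs was used.

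SCLC is a neuroendocrine tumor, and many of its surface antigens are adhesion or receptor proteins of neurons that the tumor cells carry on their membrane. Antibodies, antibody-drug conjugates, radioligands and engineered T cells are directed at such proteins, and the amount of target on the cell is one condition for their use. The RNA measured here is the message for these proteins. Protein and surface levels were not measured.

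Counts per library ran from 15392374 to 17754458, with 19437 to 20472 genes detected and 8.34% to 13.1% of the counts on mitochondrial genes. The counts of the targeted gene were low. *KIFC1* counts were 14, 4 and 14 under control siRNA against 1, 1 and 0 under siKIFC1. The control mean was 3.13-fold above a floor of 3 counts per library, and control replicate 2, with 4 counts, lay near that floor. Of the 32-base exon words of *KIFC1*, 100% also lie on alternate sequences of GRCh38. How reads with several alignments were counted is not stated, so these counts are no measure of its level. The study reported *KIFC1* knockdown in SCLC cells by RT-qPCR and immunoblotting. The labelled cell type was checked against its markers. *POU2F3*, the factor of the tuft-like subtype, had no more than 3 counts in any library. The 8 neuroendocrine markers summed to 2757 to 3231 CPM in control libraries and to 3001 to 3506 CPM in siKIFC1 libraries, while 6 leukocyte, 6 fibroblast and 6 endothelial markers summed to no more than 7.38, 17.1 and 6.78 CPM in any library. The 6 airway basal and secretory epithelium markers summed to 31.8 to 39.8 CPM and the 5 tuft-like and YAP1 markers to 7.23 to 10.1 CPM over all libraries. Defining markers at 3 counts or fewer in every library were *CD3E*, *DCN*, *PDGFRB*, *KDR*, *TEK* and *KRT14*. Others of the same lists were counted. In mean control CPM the airway markers *TP63* and *FOXJ1* were at 24.1 and 12.2, and the fibroblast marker *COL1A2* at 9.51. *AVIL* of the tuft-like list was at 7.01, the endothelial marker *VWF* at 3.98 and the leukocyte marker *PTPRC* at 2.29.

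At baseline the 9 genes covered a wide range. Genes can be compared only per length, so CPM was divided by the length of each gene's merged exons in kilobases. *EPCAM*, an epithelial adhesion protein, was the highest of them at 204 ± 6.17 CPM per kilobase (SD, n = 3) in the control libraries, above 99.6% of the 20191 genes with a count and an annotated length. *CD47*, the signal that restrains phagocytosis by macrophages, followed at 71.3 ± 3.81, and *SEZ6*, a neuronal membrane protein pursued with antibody-drug conjugates, at 45.9 ± 1.12 CPM per kilobase (SD, n = 3). No control library of one of these genes overlapped those of the next.

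A middle group was formed by 3 genes. *CADM1*, a cell adhesion molecule of the immunoglobulin superfamily, stood at 21.1 ± 1.26 CPM per kilobase, *NCAM1* (CD56, the neural cell adhesion molecule used to diagnose neuroendocrine tumors) at 19.2 ± 1.40, and *CD276* (B7-H3, an immune checkpoint ligand) at 18.6 ± 0.839 CPM per kilobase (SD, n = 3 for each). The ranges of *CADM1* and *NCAM1* overlapped, as did those of *NCAM1* and *CD276*, while *CADM1* and *CD276* did not overlap. Within each control library *CADM1* was above *NCAM1* (20.0 against 17.9, 20.8 against 18.9 and 22.5 against 20.7). *NCAM1* and *CD276* changed order between control libraries. The order also depended on the gene model. *NCAM1* has 26 annotated transcripts, whose merged exons span 12695 bases against 5819 for the longest, and with the longest transcript as length *NCAM1* reached 41.8 ± 3.04 CPM per kilobase and stood above *CD276* and *CADM1*.

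The other 3 genes were lower. *B4GALNT1*, the glycosyltransferase that makes the gangliosides GM2 and GD2, was at 6.86 ± 1.05 CPM per kilobase and *L1CAM*, a neural adhesion molecule, at 2.32 ± 0.155 (SD, n = 3 for each). *SSTR2*, the somatostatin receptor that binds octreotide and its radioligands, was the lowest, at 0.149 ± 0.0337 CPM per kilobase (SD, n = 3), above 25.3% of the 20191 genes. Its control counts were 21, 22 and 16. From *EPCAM* to *L1CAM* the per-length levels spanned 87.9-fold, and *L1CAM* was a further 15.6-fold above *SSTR2*.

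**Figure D1:**
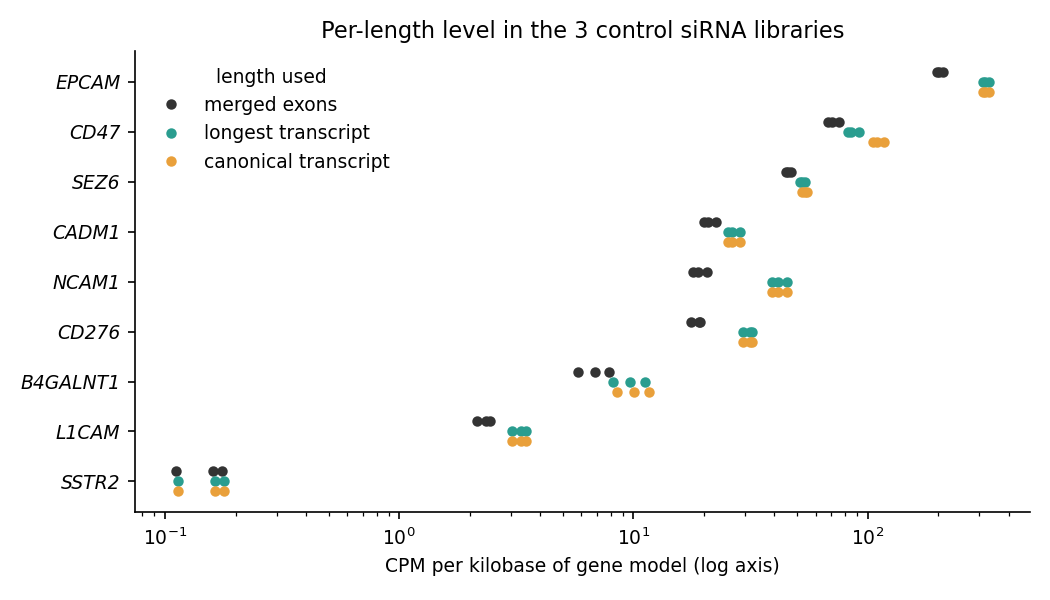
Level of each gene in the 3 control siRNA libraries (points), as CPM per kilobase on a log axis, with 3 choices of gene length. *EPCAM* lies highest and *SSTR2* lowest with each length, while *NCAM1*, *CADM1* and *CD276* change places.

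KIFC1 knockdown was compared with control siRNA by edgeR's quasi-likelihood test over all 14776 genes that passed the filter on low counts, and all 9 surface antigen genes passed it. Of the 9, 0 had an adjusted p under 0.05 (Benjamini-Hochberg over all genes tested), where 0.711% of all genes tested had, 0.332% higher and 0.379% lower. At an unadjusted p under 0.05, 1 of the 9 was lower (*NCAM1*) and 0 higher, against 9.24% of all genes tested (4.53% lower). DESeq2 on the same genes gave 1 call with an adjusted p under 0.05, against 1.85% of all genes tested. It gave no adjusted p for *SSTR2*, and genes without an adjusted p count as not called in that share. The median log2 fold change was -0.06 over the 9 genes, with 4 positive and 5 negative, and 0.01 over all genes tested.

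Libraries that shared a replicate number deviated together, so a fit blocked on that number was also made. In it 1 of the 9, again *NCAM1*, was lower at an adjusted p under 0.05 in edgeR, against 5.78% of all genes tested (3.06% lower). Over all genes tested the calls went from 49 higher and 56 lower to 402 higher and 452 lower in the blocked fit. In bulk RNA, fewer cells carrying a message and less message per cell cannot be told apart.

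*NCAM1* was the gene of the 9 with the smallest p. It measured 227, 240.5 and 262 CPM in control replicates 1 to 3 and 162, 188 and 195 CPM in the siKIFC1 libraries of the same numbers. Every siKIFC1 library lay below every control library, which 7.51% of all genes tested also showed in that direction. The means were 243 ± 17.7 and 182 ± 17.7 CPM (SD, n = 3). On the log2 scale the fold change was -0.42, with a standard error of 0.11 and a 95% confidence interval of -0.66 to -0.18, or 0.746 times the control level.

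The adjusted p of *NCAM1* was 0.136 in edgeR's quasi-likelihood test, above the threshold. In the blocked fit the log2 fold change was -0.42 (95% confidence interval -0.59 to -0.26) with an adjusted p of 0.000677 in edgeR. The same-numbered differences were -0.49, -0.36 and -0.43 on the log2 scale, lower in 3 of 3 pairs, with an SD of 0.07. DESeq2 on the same genes gave an adjusted p of 0.0253. Without siKIFC1 replicate 3 it was 0.0198 in edgeR, in a fit that called 3.13% of all genes tested, and without any other 1 library it lay between 0.180 and 0.594.

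**Figure D2:**
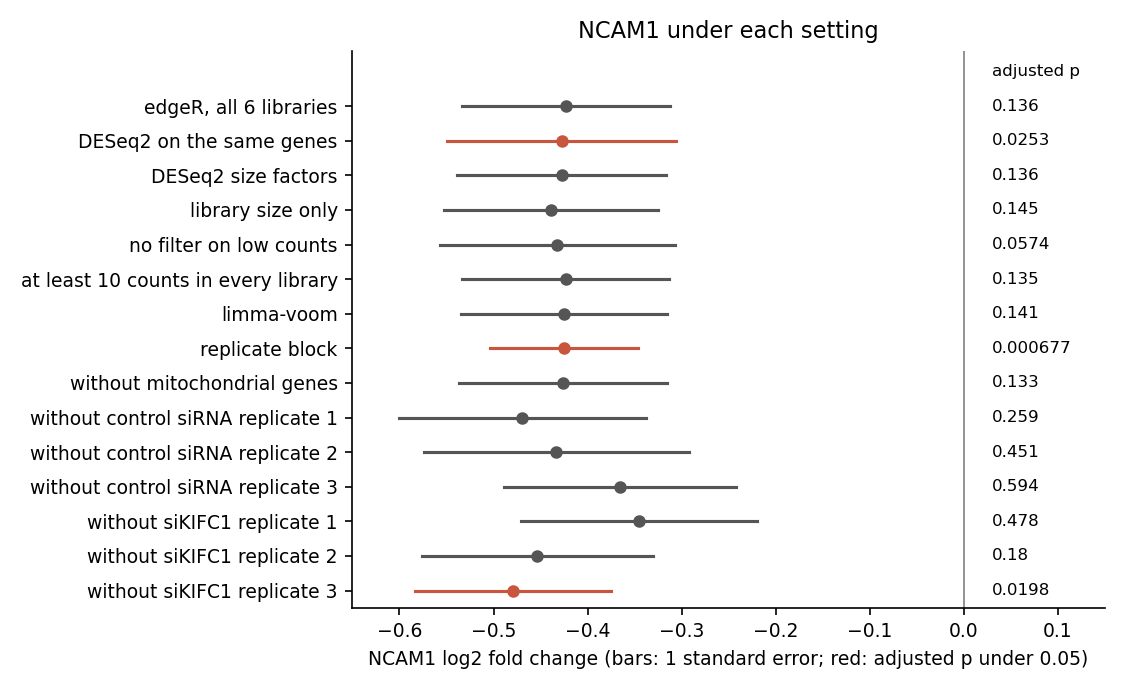
Log2 fold change of *NCAM1*, siKIFC1 against control siRNA, under each setting (points, with bars of 1 standard error and the adjusted p at the right). All 15 estimates lie below 0, from -0.48 to -0.35, and 3 of them (red) have an adjusted p under 0.05.

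A ratio of counts within a library does not depend on how libraries are scaled. The ratio of *NCAM1* to *CADM1*, another adhesion gene of chromosome 11 at a like count, was 1.03, 1.05 and 1.06 in the control libraries and 0.782, 0.799 and 0.749 in the siKIFC1 libraries. The groups did not overlap. The pair was chosen with the values of both genes known, and no test is given.

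*NCAM1* (NCBI gene ID 4684) lies on the plus strand of chromosome 11 of GRCh38, from 112961420 to 113278436. Its exons overlap 3 antisense transcripts over 7.89% of their bases, and the counting strand is not stated. *NCAM1-AS1*, the annotated antisense RNA, had 12 to 28 counts per library, against 2530 to 4819 for *NCAM1*. The 3' UTR of the canonical *NCAM1* transcript (3049 bases) holds 1 copy of the 7-base word GAGATCT, searched on the sense strand alone. That word had been found earlier on these same libraries, so its counts are not independent evidence. Of 54 genes called lower without the block whose 3' UTR is annotated, 43 hold it (79.6%), and *NCAM1* is not among these 54. With the replicate block, where *NCAM1* was called, 199 of 432 genes called lower hold it (46.1%). The word occurs in 8.96% of the 12966 genes tested that have a 3' UTR, and in 13.4% of the 2954 genes with a 3' UTR of 2000 to 4000 bases.

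Of the 9 surface antigen genes, 2 hold the word in the 3' UTR, *NCAM1* and *SSTR2*. The *NCAM1* site is shown with a copy that lies before the 3' UTR in the *KIFC1* mRNA, because the word is what these transcripts share. Each line gives 30 bases of the GENCODE 44 transcript 5′ to 3′ on GRCh38, with the word in capitals. The *NCAM1* site lies at chr11:113277455-113277484 (plus strand) and the *KIFC1* site at chr6:33405471-33405500 (plus strand).
NCAM1: gaacatgaagaGAGATCTtagagcacacag
KIFC1: caagctacgtaGAGATCTacaatgagactg
The *NCAM1* log2 fold change was -0.42 and that of *SSTR2* 0.35, both with 1 copy of the word. The word GCAACC was also found earlier on these libraries and so is no independent evidence. It lies in the 3' UTR of 45 of 48 genes called higher (93.8%) and of 23.2% of the genes tested that have a 3' UTR. Of the genes with a 3' UTR of 2000 to 4000 bases 35.9% hold it, as do 4 of the 9 surface antigen genes. *SSTR2* holds 2 copies and *SEZ6*, *CD47* and *B4GALNT1* 1 each, and 0 of the 4 were called. A match is a description of the sequence, and the part of either word in these values was not tested.

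*EPCAM* (gene ID 4072, plus strand of chromosome 2, from 47369311 to 47387020) was the other gene whose groups did not overlap. It had 511, 493 and 481 CPM in the control libraries and 538, 561 and 563 CPM in the siKIFC1 libraries. Every siKIFC1 library was above every control library, which 7.99% of all genes tested also showed in that direction. The means were 495 ± 14.99 and 554 ± 13.8 CPM (SD, n = 3). The log2 difference was 0.16 with a 95% confidence interval of -0.04 to 0.36, and its adjusted p was 0.680 in edgeR. With the replicate block its unadjusted p was 0.0330 and its adjusted p 0.226 in edgeR, so *EPCAM* did not pass in either fit.

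**Figure D3:**
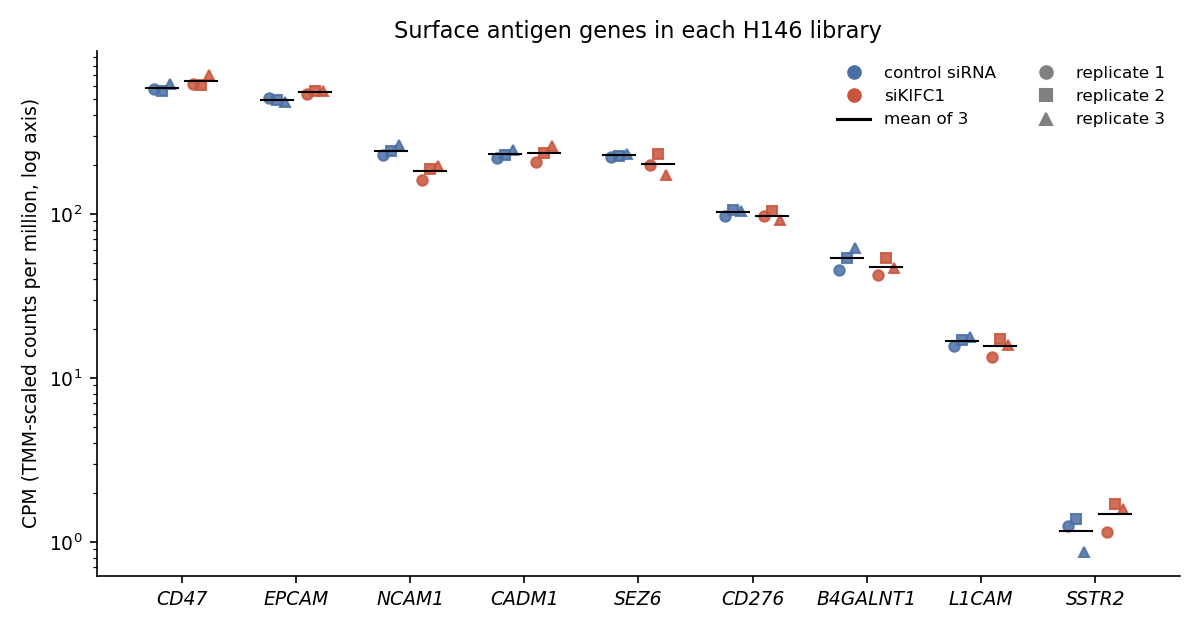
CPM of each gene in every library on a log axis, control siRNA in blue and siKIFC1 in red, with the shape giving the replicate number and the line the mean of 3. *NCAM1* (162 to 195 CPM against 227 to 262) and *EPCAM* (538 to 563 against 481 to 511) are the 2 genes whose groups do not overlap.

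Among the other adhesion genes, *CADM1* measured 219.9, 228 and 247 CPM with control siRNA and 207, 235 and 261 CPM with siKIFC1. The siKIFC1 libraries lay on both sides of the controls. The log2 fold change was 0.02 (95% confidence interval -0.23 to 0.26, adjusted p = 0.989 in edgeR), and its sign turned without control replicate 1 or siKIFC1 replicate 3. *L1CAM* measured 15.6, 17.1 and 17.8 CPM with control siRNA and 13.5, 17.3 and 16.0 CPM with siKIFC1, overlapping groups with a log2 fold change of -0.11 (95% confidence interval -0.42 to 0.20, adjusted p = 0.898 in edgeR). Its exons share 10.98% of their bases with other annotated genes.

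The 2 immune ligands overlapped between groups. *CD47* measured 579, 560.4 and 622 CPM in the control libraries and 619, 614 and 706 CPM in the siKIFC1 libraries. Within each same-numbered pair the siKIFC1 library was the higher, by 0.10, 0.13 and 0.18 on the log2 scale. The log2 fold change was 0.14 (95% confidence interval -0.08 to 0.36) with an adjusted p of 0.781 in edgeR, and 0.325 with the replicate block. *CD276* measured 96.8, 105 and 104 CPM with control siRNA and 96.5, 105 and 91.8 CPM with siKIFC1, a log2 fold change of -0.06 (95% confidence interval -0.29 to 0.16, adjusted p = 0.922 in edgeR).

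*SEZ6* varied more among siKIFC1 than among control libraries. It had 222, 227 and 233 CPM with control siRNA and 198, 233 and 173 CPM with siKIFC1, so that siKIFC1 replicate 2 lay just above the controls and replicates 1 and 3 below them. The log2 fold change of -0.17 (95% confidence interval -0.43 to 0.08, adjusted p = 0.757 in edgeR) was -0.07 without siKIFC1 replicate 3 and -0.30 without siKIFC1 replicate 2. With the replicate block the unadjusted p of *SEZ6* was 0.0419 and the adjusted p 0.256 in edgeR. In that fit 3 of the 9 genes (*NCAM1*, *EPCAM* and *SEZ6*) had an unadjusted p under 0.05, against 17.7% of all genes tested.

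*SSTR2* counts of 21, 22 and 16 under control siRNA stood against 18, 26 and 26 under siKIFC1, or 1.17 ± 0.265 and 1.48 ± 0.296 CPM (SD, n = 3). The groups overlapped. Its log2 fold change of 0.35 had a 95% confidence interval from -0.33 to 1.03 (adjusted p = 0.830 in edgeR), the widest of the 9. No difference was detectable at this depth, and the interval reached 2.04-fold.

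*B4GALNT1* (gene ID 2583, minus strand of chromosome 12, from 57623409 to 57633201) measured 45.8, 54.2 and 62.3 CPM with control siRNA and 42.3, 54.1 and 46.8 CPM with siKIFC1. Each siKIFC1 library was below the control of its number, but the groups overlapped, and the log2 fold change was -0.18 (95% confidence interval -0.48 to 0.12, adjusted p = 0.793 in edgeR). Without control replicate 1 the log2 fold change was -0.29 and without control replicate 3 it was -0.07. The exons of *B4GALNT1* share 27.1% of their bases with genes on the other strand, chiefly the pseudogene *SLC26A10P*, which had 315 to 415 counts per library against 663 to 1144 for *B4GALNT1*. Without a stated counting strand, reads of the 2 cannot be told apart there.

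**Figure D4:**
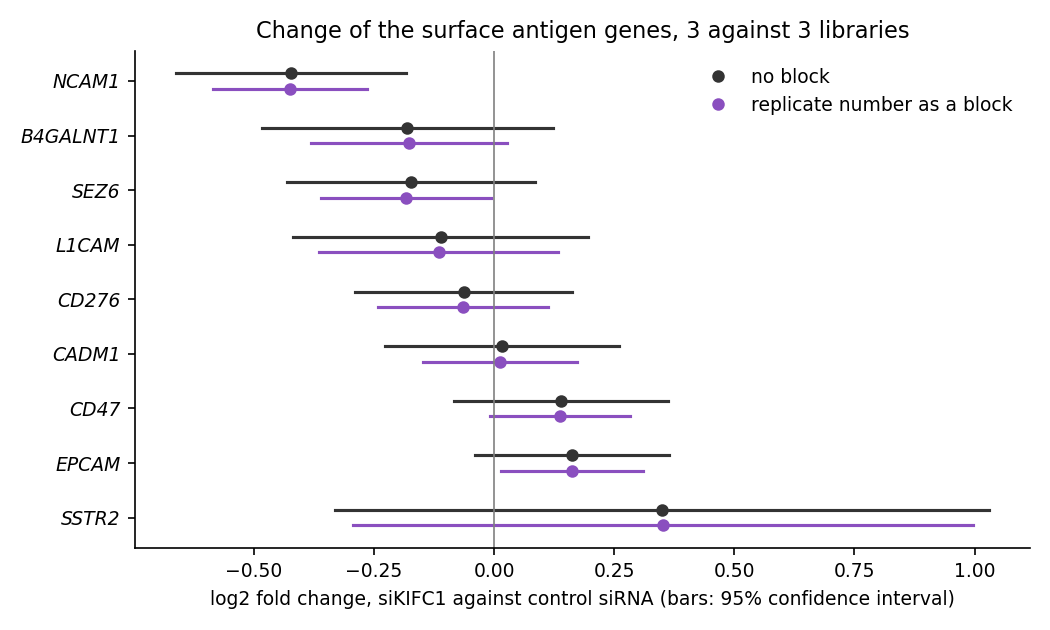
Log2 fold change of each gene, siKIFC1 against control siRNA, with 95% confidence intervals (black without a block, purple in the fit blocked on replicate number). The interval of *NCAM1* lies below 0 in both fits, and without the block those of the other 8 genes include 0.

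Related genes were taken from 8 lists of 137 genes in all, of which 100 were tested. In edgeR 1 of the 100 was higher and 2 were lower at an adjusted p under 0.05 (3.00%, against 0.711% of all genes tested). With the replicate block 4 were higher and 8 lower (12.0%, against 5.78%). The lists were chosen with earlier results of these data known, so an excess over all genes is no evidence about such genes as a class. The 3 genes called without the block were *ADAM10*, *ST6GALNAC5* and *CLDN18*, which the study had also listed as changed.

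Gangliosides are built stepwise by glycosyltransferases, and *B4GALNT1* is one step of that chain. Of 16 other ganglioside synthesis genes 14 were tested. In edgeR 0 were higher and 1 lower at an adjusted p under 0.05, against 0.711% of all genes tested in either direction. They had 5 positive and 9 negative log2 fold changes (7698 and 7078 over all genes tested) and a median of -0.05 (0.01 over all genes tested). *ST6GALNAC5*, a sialyltransferase that adds sialic acid to the GM1b ganglioside, had 83.9, 74.6 and 80.5 CPM with control siRNA and 58.4, 49.7 and 50.3 CPM with siKIFC1. The groups did not overlap, which 7.51% of all genes tested also showed in that direction. *ST6GALNAC5* fell by 0.59 on the log2 scale, with a standard error of 0.11. The adjusted p was 0.0369 in edgeR and 7.68e-05 in the blocked fit, and the call was lost without any 1 library but siKIFC1 replicate 3, with adjusted p of up to 0.211. With the block 3 of the 14 were lower, against 3.06% of all genes tested. The others were *ST8SIA5* (adjusted p 0.000295 in edgeR) and *B4GALT6* (0.0133), named after their values were seen.

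*ST8SIA1*, the GD3 synthase that acts just before *B4GALNT1* on the way to GD2, was not tested, with means of 0.275 CPM in control and 0.169 CPM in siKIFC1 libraries. *B4GALT5*, a lactosylceramide synthase and the highest of the list in CPM, was at 194 ± 23.1 and 192 ± 35.1 CPM (SD, n = 3). Of the 9 genes of ganglioside breakdown 7 were tested and 0 passed an adjusted p of 0.05 in edgeR, with 0 called by the block. At an unadjusted p under 0.05 in edgeR there was 1, against 9.24% of all genes tested. *NEU1*, *NEU4* and *B3GALT4* have 100% of their 32-base words on alternate sequences of GRCh38 too, and how reads with several alignments were counted is not stated. *PSAP*, which encodes the saposins, was the highest of this list, at 607 ± 10.4 and 582 ± 43.3 CPM (SD, n = 3).

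Adhesion molecules are cut from the surface by sheddases and modified by polysialic acid. Of 20 partners and processing enzymes of the adhesion genes 15 were tested, with a median log2 fold change of -0.05. In edgeR 0 were higher and 1 lower at an adjusted p under 0.05, against 0.711% of all genes tested in either direction. *ADAM10*, a sheddase whose substrates include L1CAM, had 71.4, 71.0 and 80.2 CPM with control siRNA and 33.3, 30.03 and 39.8 CPM with siKIFC1. It fell by 1.11 on the log2 scale, with a standard error of 0.13 and an adjusted p of 0.00396 in edgeR, and remained called in all 14 alternatives. The 3' UTR of *ADAM10* holds 1 copy of GAGATCT and that of *ST6GALNAC5* holds 0. *ADAM17*, which cleaves EPCAM, was at 44.4 and 43.1 CPM (adjusted p = 0.967 in edgeR). *ST8SIA4*, a polysialyltransferase that acts on NCAM1, was at 13.5 and 17.03 CPM (adjusted p = 0.470 in edgeR), and its partner enzyme *ST8SIA2* was not tested, at 0.0818 and 0.0220 CPM. *ANK2*, an ankyrin, was the highest of the list, at 216 ± 26.9 and 193 ± 43.8 CPM (SD, n = 3).

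Of the 9 genes listed with CD47 (ligands, integrin chains and glutaminyl cyclases), 6 were tested and 0 passed without the block in edgeR. At an unadjusted p under 0.05 in edgeR 2 were higher and 1 lower, against 9.24% of all genes tested. With the block 2 were higher, against 5.78% of all genes tested called in either direction. *QPCT*, a glutaminyl cyclase whose Golgi relative QPCTL modifies CD47, had 20.4, 19.5 and 17.2 CPM with control siRNA and 26.6, 29.5 and 26.3 CPM with siKIFC1, or 0.53 higher on the log2 scale, with an adjusted p of 0.0889 in edgeR and 0.00230 in the blocked fit. *QPCTL* itself was at 17.9 and 19.1 CPM (adjusted p = 0.927 in edgeR). *ITGAV*, the integrin alpha chain with the highest CPM of the list, measured 45.2 ± 8.02 and 57.5 ± 8.06 CPM (SD, n = 3), with an adjusted p of 0.492 in edgeR and 0.0233 with the block. The receptor *SIRPA* was not tested, at 0.0400 and 0.0213 CPM. The B7 family list, to which *CD276* belongs, had 2 of its 9 other genes tested. In edgeR 0 of the 2 had an adjusted p under 0.05, against 0.711% of all genes tested. At an unadjusted p under 0.05 there were 0, against 9.24%, and 2 genes are too few to describe the family. *NCR3LG1* (B7-H6), a ligand of natural killer cells, was the highest of the list, at 96.1 ± 20.5 and 83.0 ± 24.4 CPM (SD, n = 3). *CD274* (PD-L1) was not tested, at 0.372 and 0.531 CPM.

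Of the 17 paralogs of the 9 genes 12 were tested, with 2 positive and 10 negative log2 fold changes (7698 and 7078 over all genes tested). Their median was -0.08, with 0 calls without the block in edgeR. At an unadjusted p under 0.05 in edgeR 1 was lower, against 4.53% of all genes tested. *CADM4* had the smallest p, with 59.7, 66.4 and 65.5 CPM in control and 52.1, 56.5 and 37.5 CPM in siKIFC1 libraries, or -0.39 on the log2 scale, with an adjusted p of 0.383 in edgeR and 0.0209 in the blocked fit. *SEZ6L2* was the highest, at 158 ± 1.93 and 156 ± 22.1 CPM (SD, n = 3). *SSTR3* and *SSTR4* had 0 counts in all 6 libraries, while *SSTR1* was at 2.26 and 2.99 CPM (adjusted p = 0.679 in edgeR). Among 14 genes of somatostatin receptor signalling 12 were tested and 0 passed without the block in edgeR. At an unadjusted p under 0.05 in edgeR 2 were lower, against 4.53% of all genes tested. *GRK3*, a receptor kinase, had -0.43 as its log2 fold change (adjusted p = 0.329 in edgeR, 0.0298 with the block), and *PTPN11*, the phosphatase SHP2 and the highest of the list, was at 302 ± 16.9 and 304 ± 58.7 CPM (SD, n = 3).

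Of 43 other surface antigens and targets 32 were tested, with a median log2 fold change of 0.01. In edgeR 1 was higher and 0 lower at an adjusted p under 0.05, against 0.711% of all genes tested in either direction. *CLDN18*, a claudin whose gastric isoform is an antibody target, had 176, 185 and 199.9 CPM with control siRNA and 269.5, 330.2 and 412 CPM with siKIFC1. The groups did not overlap, which 7.99% of all genes tested also showed in that direction. *CLDN18* was 0.85 higher on the log2 scale, with a standard error of 0.14. The adjusted p was 0.0221 in edgeR and 9.02e-08 in the blocked fit, and the adjusted p was 0.0961 to 0.109 without any 1 of the control libraries. The 3' UTR of *CLDN18* holds 2 copies of GCAACC. Which isoform was counted cannot be read from gene counts. *CD24*, a phagocytosis checkpoint ligand and the highest of the list, was at 1072 ± 86.3 and 1281 ± 94.9 CPM (SD, n = 3), with an adjusted p of 0.474 in edgeR and 0.0348 with the block. *DLL3*, the Notch ligand targeted by tarlatamab, was at 60.5 and 72.7 CPM (adjusted p = 0.693 in edgeR).

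**Figure D5:**
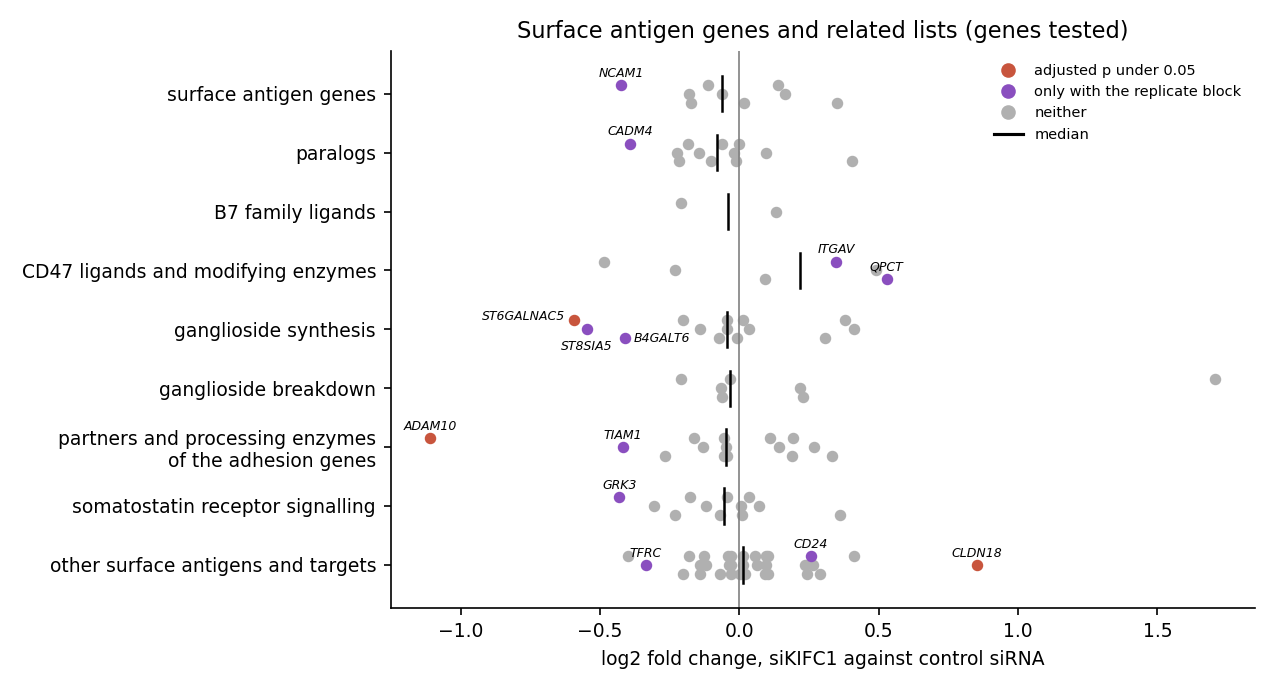
Log2 fold change of each tested gene of the 9 surface antigen genes and the 8 related lists, with the list median as a line. *ADAM10*, *ST6GALNAC5* and *CLDN18* (red) have an adjusted p under 0.05 in edgeR, and named genes in purple reach it only with the replicate block.

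Among 11802 genes with a mean log2 CPM of at least 2, those whose log2 CPM followed *NCAM1* most closely over the 6 libraries were *CNMD* (Pearson r = 0.993), *ATP10D* (0.990) and *ACOT9* (0.989). These 6 points share the group difference and the library scaling, and 58 genes had an r of at least 0.95.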

How the data were processed

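RNA-seq libraries of H146 cells (3 control siRNA, 3 siKIFC1) were analyzed. The authors aligned reads to GRCh38 with HISAT2 2.2.1, and they deposited raw counts per NCBI gene ID from featureCounts 2.0.8. The annotation, strand setting and handling of multiply aligned reads are not given in the sources used here. Of 28395 gene IDs, 27745 were matched to a RefSeq symbol (GRCh38.p14). The 650 others held 0.0618% of the counts and stayed in the fit.

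The test was edgeR's quasi-likelihood test (edgeR 4.0.16, R 4.3.3), robust and two-sided, after filterByExpr and TMM scaling (Benjamini-Hochberg adjustment over 14776 genes, threshold 0.05). The methods of the study name DESeq2, which was an alternative here (DESeq2 1.42.0), as was limma-voom (limma 3.58.1). Each standard error is the size of the log2 fold change over the root of its F statistic. Lengths, exons and 3' UTRs came from GENCODE 44 (canonical transcripts, 3' UTRs of at least 50 bases). Words of 32 bases within exons were searched on the 261 alternate sequences. Python 3.11.15 was used for tables and figures. The edgeR script was tested on simulated data.

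After removal of group means, libraries of the same replicate number correlated over 11758 genes at 0.484, 0.414 and 0.491, against -0.457 to 0.0234 for libraries whose numbers differed (genes not being independent of each other). Deviations from a group mean cancel out within the group, so positive same-numbered values in part pull the others toward negative values. By the same-numbered values the numbers paired the libraries, and the block was an alternative fit.

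Named genes are the 9 surface antigen genes and *KIFC1*. From each list they are those with an adjusted p under 0.05, the smallest p or the highest control CPM. *NCAM1*'s closest 3 genes are also named. *DLL3*, *ADAM17*, *ST8SIA1*, *ST8SIA2*, *ST8SIA4*, *QPCTL*, *SIRPA*, *CD274*, *SSTR1*, *SSTR3*, *SSTR4*, *NEU1*, *NEU4* and *B3GALT4* were added after their values were seen. Some items that the rule names are not reported here. The genes and lists were chosen with earlier results of these data known. Total counts per library (15392374 to 17754458) limit precision for low genes, and floors cover counting error only.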

Additional observations from a re-analysis of the deposited data

How the results depend on the processing

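Over 14 alternatives the log2 fold change of *NCAM1* stayed between -0.48 and -0.35, with an adjusted p under 0.05 in 3 of them. *CADM1* changed sign in 2, at -0.02 without control siRNA replicate 1 and -0.069 without siKIFC1 replicate 3, and ran from -0.069 to 0.10 with 1 library left out. The other 7 genes kept their direction, and 0 of them were called under any alternative run. *SSTR2* had no adjusted p in DESeq2, so it could not be called there. Among the 9 genes, 0 were called higher under any, and 1 was called lower with DESeq2 and with the replicate block, while with 1 library left out the number lower ran from 0 to 1. The replicate block changed no call among the 9 genes other than that of *NCAM1*.

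Over all genes, 49 were higher and 56 lower. DESeq2 on the same genes gave 126 and 148, no filter on low counts 121 and 144, and the replicate block, by which the numbers paired the libraries, 402 and 452. With 1 library left out the calls ran from 9 to 194 higher and from 15 to 274 lower, lowest without control siRNA replicate 3 and highest without siKIFC1 replicate 3. The cause was not tested.

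Of the list genes, 1 was higher and 2 lower. DESeq2 on the same genes gave 2 higher and 3 lower, where it called 1.85% of all genes tested. No filter on low counts also gave 2 higher and 3 lower, with 121 and 144 over all genes. The replicate block gave 4 higher and 8 lower, where 5.78% of all genes tested were called. With 1 library left out there were 0 to 4 higher and 1 to 6 lower. Most were found without siKIFC1 replicate 3, where 3.13% of all genes tested were called. In the per-length order 6 of the 9 genes kept their place with the longest transcript as length, and 6 with the canonical transcript (an alternative chosen after seeing the data). All 9 kept it with any 1 control library left out. Depth limits *SSTR2* most.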
